A study of Homo sapiens with 6 samples.

Results

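The 35 genes described here act at the passage from G1 into S phase and in the copying of DNA. They were listed by symbol: cyclin E and its kinase, E2F transcription factors, origin licensing factors, the MCM helicase, its activators, polymerase subunits, the sliding clamp and its loader, enzymes of deoxynucleotide supply, and SLBP and UHRF1. Each of the 35 was named by at least 1 probe set of the array, out of 18417 genes so named, and all 35 passed the filter on dim genes that left 13812 genes for testing. Their mean log2 levels lay between 5.51 and 10.6, above the filter level of 4.28.

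The cells were A172, T98G and U87MG, established lines from human glioblastoma, and their RNA was read on Affymetrix Human Gene 1.0 ST arrays, whose probe sets cover the exons of a gene. In each line, 1 array came from cells given a miR-338-5p precursor (the mimic) and 1 array from cells given a negative control, both harvested 24 hours after transfection, so that there were 3 arrays in each group. All arrays therefore came from transfected cultures, and untransfected cultures were not analysed here. Each line is a single long-cultured line grown in serum, and the labels do not say whether an array came from 1 culture or a pool. A p-value here therefore reflects how the response varied among 3 lines, not among repeat cultures. The test also drew each gene's variance towards a value shared by all genes, with 2 residual and 4.56 prior degrees of freedom. Per the deposited design, the experiment sought targets of this microRNA.

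Before S phase, cyclin E with CDK2 releases E2F factors from the retinoblastoma family, and E2F then drives transcription of most genes of the replication machinery. Origins are licensed when ORC, CDC6 and CDT1 load the MCM2 to MCM7 ring, which CDC45 and the GINS complex turn into an active helicase. The clamp loader, built of RFC1 to RFC5, then places the PCNA ring on DNA for the polymerases. Proliferating tumour lines express these genes broadly, and in bulk RNA more cells in S phase and more RNA per cell cannot be told apart.

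The transfected microRNA is shown first, because its seed (bases 2 to 8, in capitals) is the part that pairs with a target. The sequence is that of the mature strand in RefSeq (GRCh38.p14, chr17:81125923-81125944, minus strand), and the 7 letters that would match the seed in a transcript, written as DNA, are ATATTGT. Transcript sequences were not used here, so whether a member carries such a site was not analysed here.
hsa-miR-338-5p: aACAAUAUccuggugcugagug

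Promoters are shown because E2F is known to drive many of these genes. Of the 35 members, 30 had a window in the promoter table used here (RefSeq, 250 bases before to 50 bases after the start site, GRCh38.p14). MCM4, CCNE2, E2F8, CDK2 and MCM5 had none and were not searched. Of the 30, 19 (63.3%) held TTTGGCGC, TTTGCCGC, TTTCGCGC or TTTCCCGC on either strand, the letters of the E2F consensus. Matches can overlap, as on opposite strands in MCM2 and MCM6. The same letters stood in 3.99% of the 27305 genes in the promoter table and in 6.33% of the 10920 of them that were tested. CCAAT, the box bound by NF-Y, stood in 18 of the 30 members (60%), against 39.7% of all genes in the table. These letters were chosen after the member promoters had been searched with 13 strings on both strands and the counts seen, and TTTGCCGC was added then to complete the consensus. Of the 9 strings not kept, the looser TTTNNCGC stood in 20 of the 30 members (66.7%, against 8.23% of all genes), GCGGGAA in 13 (43.3%, against 7.82%), GGCGGGAA in 8 (26.7%, against 3.79%), TTTGGCGG in 5 (16.7%, against 0.809%) and TTTCCCGCC, with its reverse complement GGCGGGAAA, in 3 (10%, against 0.96%). The other strings not kept were less frequent in members than in all genes, TTGAA at 23.3% against 38.5%, TTTNAA at 20% against 39.5% and TTTGAA at 3.33% against 18.2%. A match describes these letters only and is not evidence of binding. Of the 12 members with the smallest p-values after the mimic, 8 had an E2F match. RFC4 and RRM2 had a window without a match, and E2F8 and CCNE2 had no window. The match nearest to the start site is printed for each of the 8, read along the gene's strand with the motif in capitals.
RFC3 (chr13:33818084-33818111, plus strand, motif at -55): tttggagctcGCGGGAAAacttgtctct
GINS3 (chr16:58392456-58392483, plus strand, motif at -5): gtccccgggcGCGGGAAAcgagtttcaa
E2F2 (chr1:23531258-23531285, minus strand, motif at -42): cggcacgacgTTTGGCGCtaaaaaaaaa
POLA1 (chrX:24693771-24693798, plus strand, motif at -137): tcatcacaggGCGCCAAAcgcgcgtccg
CDC25A (chr3:48188444-48188471, minus strand, motif at -44): gtggattccgTTTGGCGCcaactaggaa
POLE2 (chr14:49688202-49688229, minus strand, motif at -5): tgcggcggtgGCGCCAAAtcgcaaatat
MCM2 (chr3:127598403-127598430, plus strand, motif at 3): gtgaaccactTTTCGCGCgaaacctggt
MCM6 (chr2:135876512-135876539, minus strand, motif at -86): gtcaggtttgGCGCGAAAtctccagctc

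RFC3 and GINS3, the members with the lowest and the highest mean change, hold the same 8 letters on the same strand. So do CDT1, GINS2, MCM7, PCNA, TYMS and UHRF1. On either strand, TTTCCCGC stood in 9 of the 30 members (30%), against 1.98% of all genes in the promoter table. Over the 19 members with any E2F match the median change (mimic minus control, log2) was 0.136, with 15 positive. Over the 11 members with a promoter window but no match it was 0.044, with 10 positive. The ranges overlapped, from -0.58 to 0.46 with a match and from -0.18 to 0.24 without, and no test was made of this split.

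After the mimic, RFC3 was the only one of the 35 genes that passed limma's threshold (adjusted p under 0.05, lines blocked), and it fell. None of the 35 passed upward. Among all genes tested, 0.789% passed as lower and 0.319% as higher, so that 1 of 35 (2.86%) lower and 0 higher are counts near the background. At an unadjusted p under 0.05 the mimic was higher for 6 members, GINS3, RFC4, E2F2, E2F8, POLA1 and CDC25A, and lower for RFC3, against 6.01% of all genes higher and 5.83% lower.

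**Figure D1:**
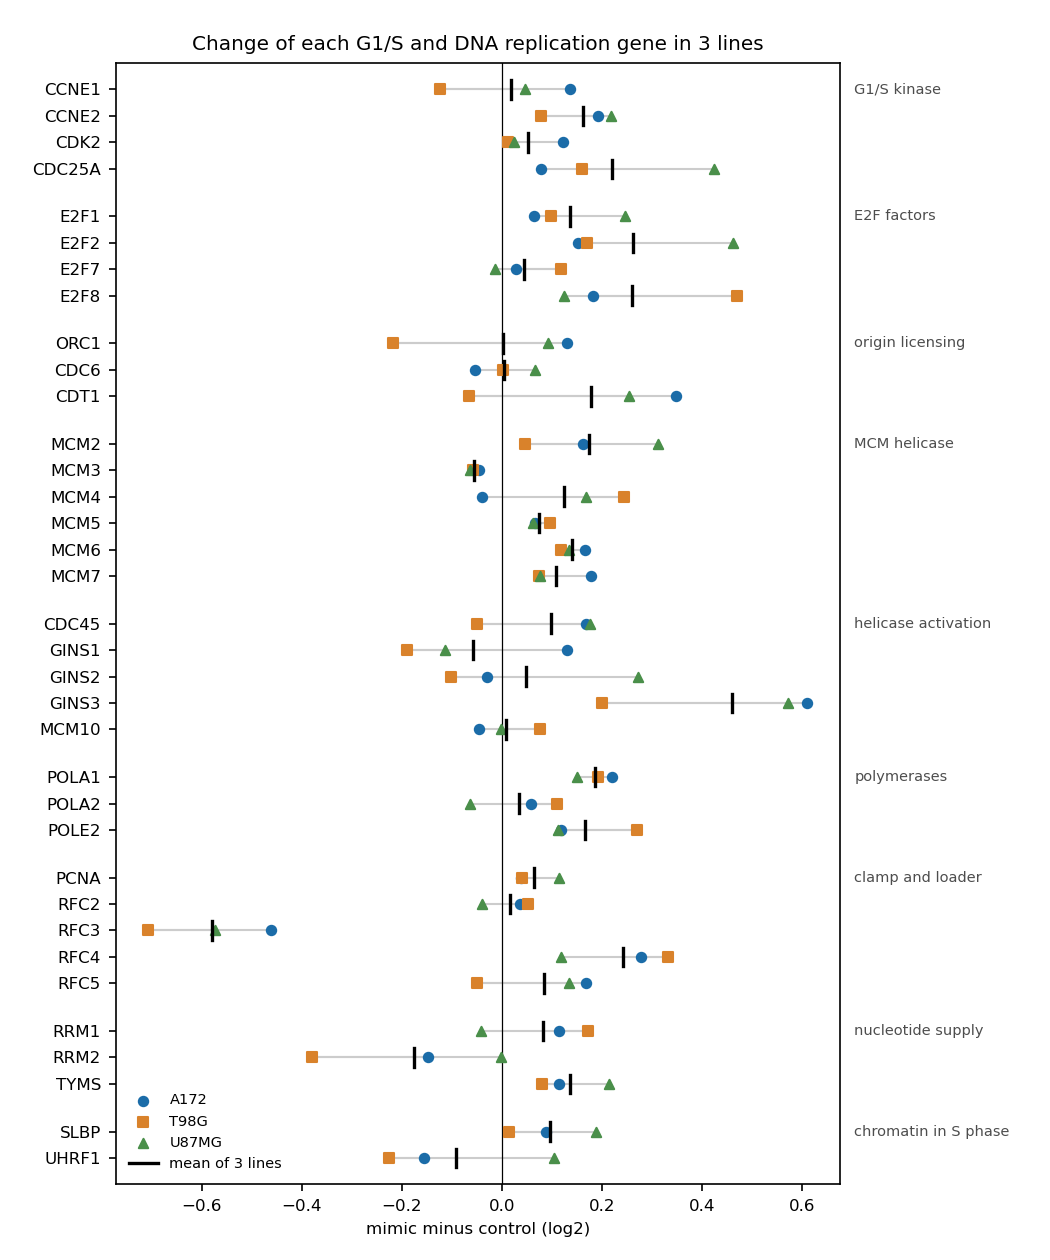
Mimic minus control (log2) of each of the 35 genes in A172 (circles), T98G (squares) and U87MG (triangles), with the mean of the 3 lines as a black bar, grouped by role. RFC3 lies left of every other gene in each line, between -0.71 and -0.46, and most of the other means lie between 0 and 0.3.

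The members were, on the whole, slightly above control. The mean change was positive for 30 of 35 (85.7%), against 52.4% of all genes tested, and the median change was 0.084 over the members against 0.0068 over all genes. In single lines the median over the members was 0.11 in A172, 0.074 in T98G and 0.11 in U87MG, with 27, 24 and 26 of the 35 positive. The mimic array lay above its control in all 3 lines for 17 members (48.6%), against 18.5% of all genes, and below it in all 3 lines for RFC3, RRM2 and MCM3, against 15.8% of all genes.

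These shifts were small: 31 of the 35 mean changes were under 0.25 in size, and the median standard error of a member's change was 0.079. With each array centred on its median, 26 means were positive, 13 members were positive in all 3 lines, and the median was 0.068 against -0.0095 over all genes. The T98G control array had the lowest array median, 5.06, against 5.12 in the T98G mimic array. With quantile normalization repeated over the probe sets, 30 means were positive, 17 members were positive in all 3 lines, and the median was 0.086 against 0.0029 over all genes.

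**Figure D2:**
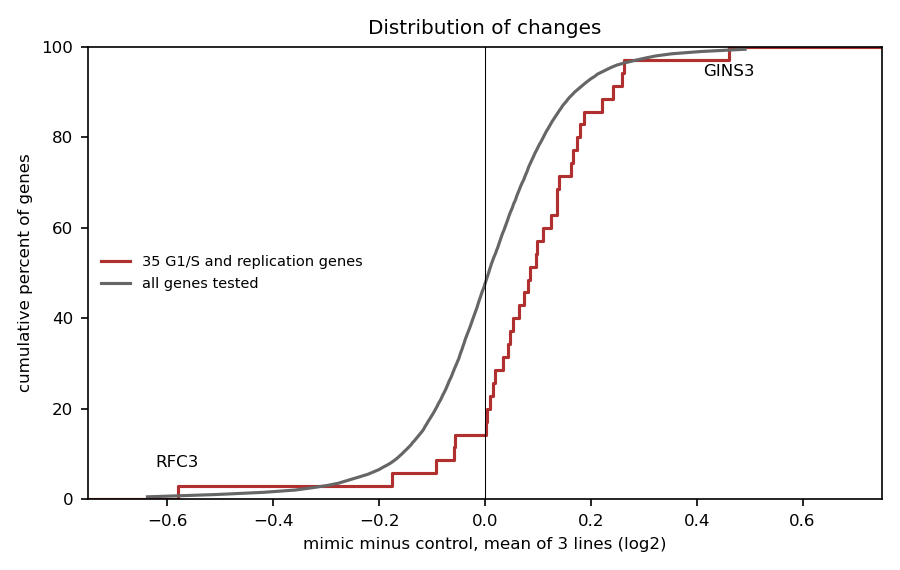
Cumulative percent of genes (vertical axis) against mimic minus control, mean of 3 lines, log2 (horizontal axis), for the 35 members (red steps) and all genes tested (grey line, drawn without its outermost values). The member curve crosses 0 with 5 of 35 genes to its left, and RFC3 at -0.58 and GINS3 at 0.46 form its ends.

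The clamp loader holds the member that changed most. RFC3, a small subunit of the pentamer that opens the PCNA ring, stood at 8.27, 8.70 and 8.88 in the A172, T98G and U87MG mimic arrays, against 8.73, 9.41 and 9.45 in their control arrays (log2 level, and array values below keep this order of lines). It was lower with the mimic in each line, while the groups overlapped, since the U87MG mimic array stood above the A172 control array. RFC3 fell by 0.58 ± 0.12 on the log2 scale (SD, n = 3; SE 0.0805; limma adjusted p = 0.0316), which is 0.669-fold of control. Changes in single lines were -0.46, -0.71 and -0.57, and 2.21%, 0.775% and 1.17% of all genes tested lay lower still in A172, T98G and U87MG. The lowest of the other 34 members was at -0.16 in A172 (UHRF1), -0.38 in T98G (RRM2) and -0.11 in U87MG (GINS1).

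The call of RFC3 depended on the lines, the filter and the block. Its adjusted p was 0.0683 without A172, 0.0763 without T98G, 0.208 without U87MG and 0.0672 with no filter on dim genes, and 1 after rounding with no replicate block, while the change itself stayed between -0.64 and -0.52 over the fits that left out a line. RFC3 passed in every other setting, with limma adjusted p of 0.00562 with the dimmer 50% of genes left out. The adjusted p was 0.0126 with arrays centred on their medians and 0.000467 with a variance prior that follows expression.

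The other subunits did not pass. RFC4, an ATPase subunit of the loader's core, stood at 10.03, 9.90 and 10.01 in the A172, T98G and U87MG mimic arrays, against 9.75, 9.57 and 9.89 in control arrays. Every mimic array lay above every control array for RFC4, with a change of 0.24 ± 0.11 (adjusted p = 0.294). RFC5 had 8.51, 8.73 and 9.29 with the mimic, against 8.34, 8.78 and 9.15 in controls, and was lower in T98G only (change 0.084, adjusted p = 0.741). RFC2 had 9.91, 9.76 and 9.64 with the mimic, against 9.88, 9.71 and 9.68 in controls, a change of 0.016 with a 95% interval of -0.16 to 0.19.

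RFC1, the large subunit, which is not among the 35 genes, had 9.25, 8.74 and 8.998 in mimic arrays, against 8.97, 8.43 and 8.70 in control arrays. Its changes of 0.28, 0.30 and 0.30 were close to one another in size, and its mean of 0.30 did not pass (adjusted p = 0.152).

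Set against its partners within each array, RFC3 was lower with the mimic in all 3 lines. RFC3 minus the mean of RFC2, RFC4 and RFC5 was -1.22, -0.76 and -0.77 in the A172, T98G and U87MG mimic arrays, against -0.59, 0.056 and -0.13 in the control arrays. Since probe sets differ in brightness, only the change of this difference is of use, and it was -0.62 in A172, -0.82 in T98G and -0.64 in U87MG. The mean change was -0.70 ± 0.11 (SD, n = 3), or 0.618-fold, and the exact two-sided sign-flip permutation test gave p = 0.25, the smallest value that 3 lines allow. With RFC1 among the partners the mean was -0.74, and against single partners it was -0.60 for RFC2, -0.82 for RFC4, -0.67 for RFC5 and -0.88 for RFC1. PCNA, the ring that the loader places, had 10.10, 10.52 and 9.66 in mimic arrays, against 10.06, 10.48 and 9.54 in controls, and differed by 0.065 ± 0.043 (adjusted p = 0.784).

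**Figure D3:**
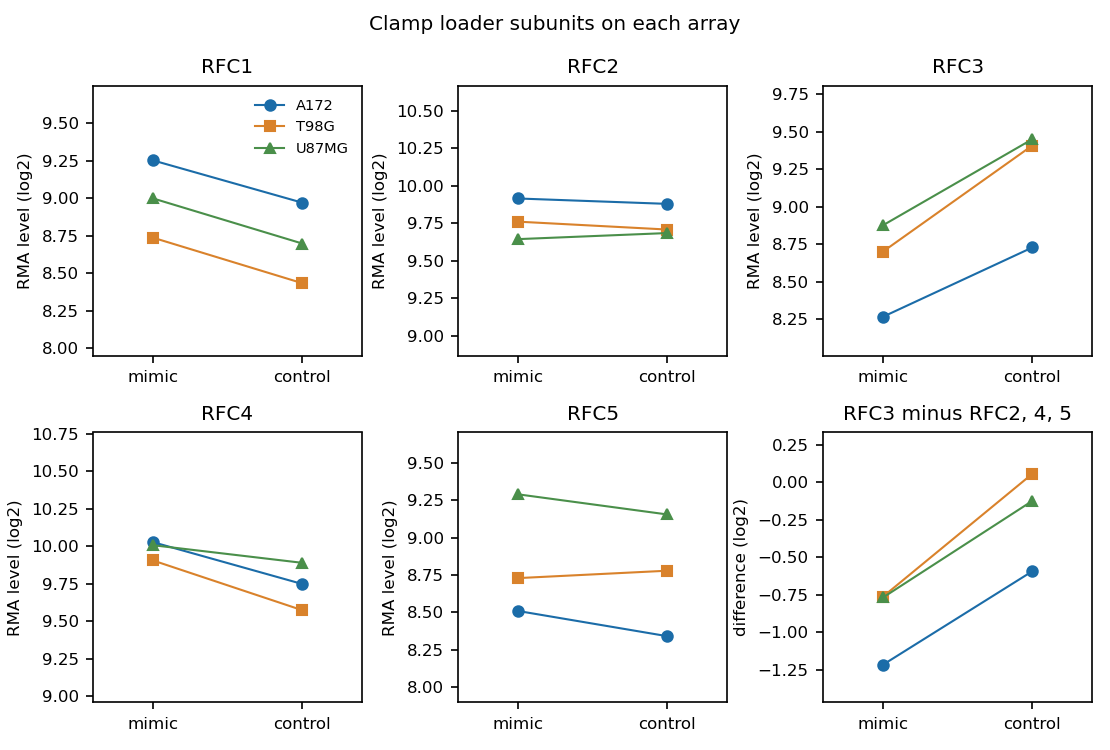
RMA log2 level of the 5 clamp loader subunits and RFC3 minus the mean of RFC2, RFC4 and RFC5 (last panel), with mimic arrays left and control arrays right and each line joined by a segment. All panels span the same height, and the RFC3 segments rise towards control in all 3 lines, while those of RFC1 and RFC4 run the other way.

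Other proteins of clamp loading did not pass either. Of 9 listed partners (RFC1, subunits of alternative loaders and the checkpoint clamp), 0 passed in either direction, and their median change was 0.024. DSCC1, a subunit of the cohesion loader built on CHTF18, was at 0.27 (adjusted p = 0.18), CHTF18 at 0.13 and ATAD5, which unloads PCNA, at -0.15. RAD17, the large subunit of the checkpoint loader that also uses RFC2 to RFC5, was at 0.023.

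Among the factors that activate the helicase, GINS3 had the largest difference, and it did not pass. GINS3, a subunit of the GINS tetramer, stood at 8.18, 7.58 and 8.03 in the A172, T98G and U87MG mimic arrays, against 7.57, 7.38 and 7.46 in their controls. Every mimic array lay above every control array, though the T98G mimic array exceeded the A172 control array only by a narrow margin. The change was 0.46 ± 0.23 (SD, n = 3), or 1.38-fold, with limma adjusted p = 0.128. By line it was 0.61, 0.20 and 0.57, and 1.04% of all genes tested lay higher in A172, 14.5% in T98G and 0.796% in U87MG. Without T98G its mean was 0.59 and it passed (adjusted p = 0.0453), as it did with the dimmer 50% of genes left out (0.0379) and with a variance prior that follows expression (0.015). It did not pass without A172 (limma adjusted p = 0.371), without U87MG (0.423), with no filter on dim genes (0.225) or in the remaining settings.

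The other GINS subunits did not share its direction in every line. GINS1 had 8.32, 8.79 and 7.84 in mimic arrays, against 8.19, 8.98 and 7.95 in control arrays, above control in A172 and below it in the other lines (-0.058, adjusted p = 0.85). GINS2 had 8.88, 8.79 and 8.39 with the mimic, against 8.91, 8.89 and 8.12 in controls, above control in U87MG alone (0.047, adjusted p = 0.889). GINS4, the remaining subunit and not one of the 35, had 6.69, 7.66 and 7.41 with the mimic, against 6.79, 7.69 and 7.58 in controls (-0.10, adjusted p = 0.659).

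CDC45, the partner of GINS in the helicase, had 7.33, 8.45 and 8.13 in mimic arrays, against 7.16, 8.50 and 7.96 in control arrays, and differed by 0.10 ± 0.13. MCM10, which helps to open the helicase, had 8.93, 8.76 and 9.08 with the mimic, against 8.98, 8.69 and 9.09 in controls, and differed by 0.009 with a 95% interval of -0.17 to 0.18. Neither passed (adjusted p = 0.703 and 0.979).

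The 6 subunits of the MCM ring differed little, with 5 of 6 means positive and a median of 0.12. MCM2 was at 8.57, 8.11 and 8.64 with the mimic, against 8.41, 8.07 and 8.33 in controls (0.17 ± 0.13), and MCM6 at 8.81, 8.45 and 9.30 with the mimic, against 8.64, 8.33 and 9.17 in controls (0.14 ± 0.025). MCM6 differed alike in the 3 lines, by 0.17, 0.12 and 0.13, and did not pass at a standard error of 0.0708 (adjusted p = 0.509). That standard error draws on the variance of all genes as well as on these 3 changes. MCM3 was the 1 subunit below control, by -0.046, -0.058 and -0.063 in A172, T98G and U87MG, with 9.23, 9.36 and 10.002 in mimic arrays against 9.28, 9.42 and 10.07 in control arrays (adjusted p = 0.812). MCM4 differed by 0.12, MCM5 by 0.075 and MCM7 by 0.11, with adjusted p between 0.632 and 0.743.

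Licensing factors varied in sign between lines, and none passed. CDT1, which brings the ring to origins and is destroyed in S phase, was at 7.24, 7.22 and 7.26 in mimic arrays, against 6.90, 7.28 and 7.01 in controls, above control in A172 and U87MG but not in T98G (0.18 ± 0.22, adjusted p = 0.551). ORC1, the largest origin recognition subunit, had 7.08, 7.99 and 7.81 with the mimic, against 6.95, 8.21 and 7.72 in controls, and its lines cancelled out (changes 0.13, -0.22 and 0.092). CDC6, the ATPase that joins ORC for loading, differed by 0.0045 with a 95% interval of -0.17 to 0.18. Of 17 further genes of origins and loading, 0 passed, and 8 were positive (median -0.003). ORC4 and ORC5, subunits of the origin recognition complex, were at -0.28 and -0.18, and TICRR, which helps to start origins, at 0.19, with adjusted p from 0.281 to 0.379.

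Of the E2F factors, all 4 had positive means and none passed. E2F2, an activator, had 5.21, 5.20 and 6.51 in the A172, T98G and U87MG mimic arrays, against 5.05, 5.03 and 6.05 in control arrays (0.26 ± 0.17, adjusted p = 0.319), and its largest difference was in U87MG. E2F8, an atypical E2F that represses transcription, had 7.70, 7.11 and 8.62 with the mimic, against 7.52, 6.64 and 8.50 in controls (0.26 ± 0.19, adjusted p = 0.333), and its largest difference was in T98G. E2F1, the best-known activator, was at 7.34, 7.22 and 7.77 with the mimic, against 7.28, 7.13 and 7.53 in controls (0.14). E2F7, the other atypical member, was at 0.044. Differences of response between lines have no test here, because a fit with a response for each line leaves no residual degrees of freedom.

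The kinase that starts S phase and its activators did not pass. CDC25A, the phosphatase that activates CDK2, had 7.15, 7.74 and 8.25 with the mimic, against 7.07, 7.58 and 7.83 in controls (0.22 ± 0.18, adjusted p = 0.414), with its largest difference in U87MG. CCNE2, a cyclin E, had 8.32, 8.60 and 8.95 with the mimic, against 8.12, 8.52 and 8.73 in controls (0.16 ± 0.075, adjusted p = 0.457), above control in every line. CCNE1, the other cyclin E, was at 0.019 with a 95% interval of -0.18 to 0.22, and CDK2 at 0.053 with one of -0.12 to 0.23.

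Of 26 further regulators of G1/S that were tested, 0 passed and 15 were positive, with a median of 0.013. CCND3, a D-type cyclin, had the smallest p among them, with 8.79, 8.83 and 8.66 in mimic arrays against 8.50, 8.12 and 7.59 in controls (0.69 ± 0.39, adjusted p = 0.109). CDK6, a partner of D-type cyclins, was at -0.22 and CCND1 at -0.30, both below control in every line without passing (adjusted p = 0.294 and 0.317).

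The polymerase subunits had positive means. POLA1, the catalytic subunit of polymerase alpha, which primes synthesis, had 7.86, 8.21 and 8.12 in mimic arrays, against 7.64, 8.02 and 7.97 in control arrays, a change of 0.19 ± 0.035 that was close in the 3 lines (adjusted p = 0.37). POLE2, an accessory subunit of the leading-strand polymerase, had 5.998, 6.69 and 7.67 with the mimic, against 5.88, 6.42 and 7.56 in controls (0.17 ± 0.09, adjusted p = 0.457). POLA2, the regulatory partner of POLA1, differed by 0.035 (adjusted p = 0.901). Of 24 further genes of the fork and the lagging strand, 21 were positive and 0 passed, with a median of 0.084. POLD3, a subunit of the lagging-strand polymerase, was at 0.32 ± 0.012 (adjusted p = 0.128), CLSPN, a fork and checkpoint adaptor, at 0.28 ± 0.061 and PRIM1, the primase, at 0.19.

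Deoxynucleotide enzymes and the S-phase chromatin genes did not pass. RRM2, the regulated subunit of ribonucleotide reductase, had 9.45, 8.93 and 9.85 in mimic arrays, against 9.60, 9.31 and 9.85 in controls, lower in T98G and A172 and nearly equal in U87MG (-0.18 ± 0.19, adjusted p = 0.525). TYMS, which makes thymidylate, had 10.68, 10.67 and 10.65 with the mimic, against 10.57, 10.59 and 10.43 in controls, and every mimic array lay above every control array (0.14 ± 0.069, adjusted p = 0.541). RRM1, the large reductase subunit, was at 0.081, SLBP, which binds histone mRNA, at 0.10, and UHRF1, which recruits DNA methylation to new strands, at -0.092. UHRF1 had a second, dimmer probe set, with a mean level of 4.67 against 8.42 for the one used. RFC4, GINS3 and TYMS were the 3 members whose groups did not overlap (2.96% of all genes tested).

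Of 8 further genes of nucleotide supply, 6 were positive, with DCK, which salvages deoxycytidine, at 0.32 ± 0.14 (adjusted p = 0.183), CMPK1 at 0.11 and RRM2B at 0.10, and 0 passed. Of 21 tested genes of G2/M and mitosis, 16 were positive with a median of 0.078, near the 0.084 of the 35 members, and 0 passed. By line the likeness was less close. The G2/M median was 0.023 in A172, 0.12 in T98G and 0.098 in U87MG, with 11, 18 and 17 positive. The members had medians of 0.11, 0.074 and 0.11. BUB3, a spindle checkpoint protein, was at 0.34, KIF11, a spindle motor, at 0.25 and CCNB2, a B-type cyclin, at 0.21. Histone genes chosen by symbol (58 tested, some with near-identical copies whose probes may not separate them) include genes not tied to replication, such as H1-10, the antisense RNA H1-10-AS1 and the pseudogenes H1-9P and H2BC19P. They had 31 positive and a median of 0.009, and 0 passed, with H1-10 at 0.29, H2AC25 at 0.25 and H2BC14 at 0.21.

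For most members the range over lines was wider than the largest mimic change in a line. The range of line means had a median of 0.666 (log2) over the members, against 0.535 over all genes, while the median size of a mimic change was 0.098. For 30 of the 35 members the range over lines exceeded the largest mimic change in any line. The exceptions were RFC3, GINS3, RFC4, CDT1 and TYMS. The share over all genes was not computed, so this count describes the members only. In limma's F test over the lines, with transfection as an additive term, 29 members (82.9%) passed, against 67.5% of all genes, so that a difference between lines was common in both. Each line is represented by its mimic and its control array, and the residual spread is that of the transfection response.

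**Figure D4:**
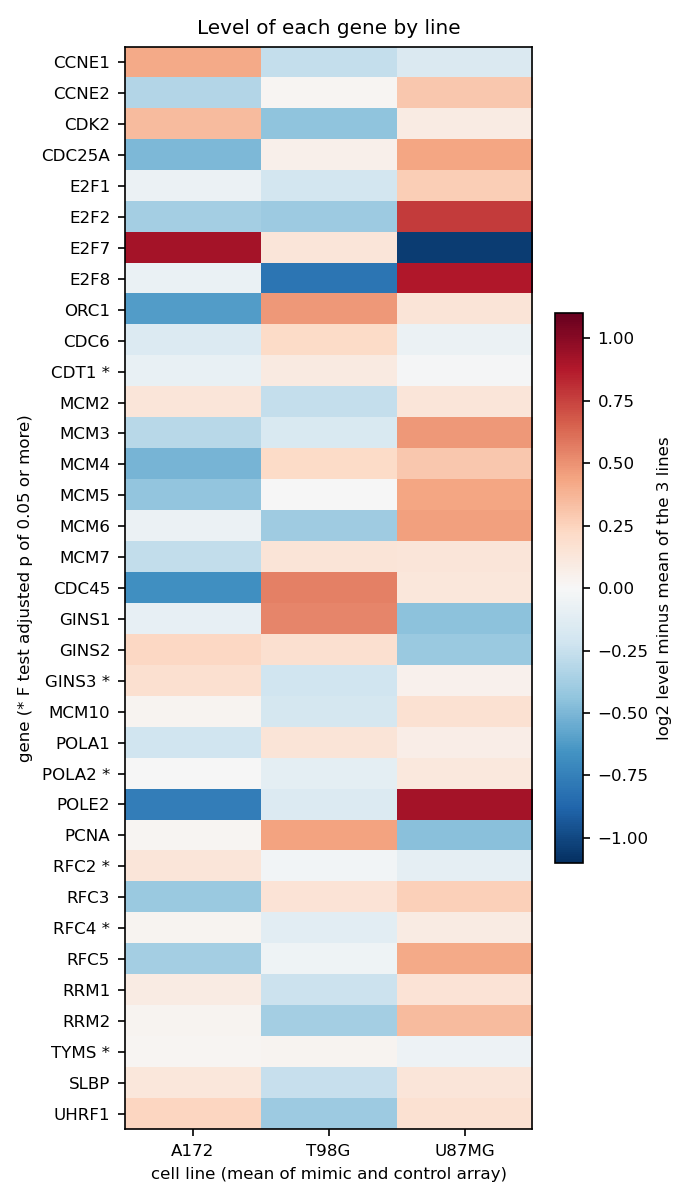
Log2 level of each member in A172, T98G and U87MG (mean of the mimic and control array) minus its mean over the 3 lines, with an asterisk for the 6 genes that did not pass the F test. The strongest colours belong to E2F7, E2F8, E2F2 and POLE2, and the most red cells among MCM genes stand in the U87MG column.

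U87MG had the highest level of 19 members (30.07% of all genes), T98G of 9 (31% of all genes) and A172 of 7 (38.93% of all genes). For 10 of the 19, 28.6% of the 35, the next line was called lower, against 13.6% of all genes. Between A172 and U87MG, 6 members were called higher in A172 (27.3% of all genes) and 16 lower (26.9% of all genes). Between T98G and U87MG, 6 were called higher in T98G (23.6% of all genes) and 17 lower (23.5% of all genes). Between A172 and T98G, 11 were called higher in A172 (25.1% of all genes) and 14 lower (25.4% of all genes). The full order of the 3 lines was called for 12 members (34.3%), against 19.6% of all genes, and for the other 23 at least 1 pair of neighbours was not.

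The atypical E2F genes E2F7 and E2F8 had the widest ranges over lines, 1.97 and 1.68, followed by POLE2 at 1.67. E2F7 and E2F8 ran in different orders. E2F7 stood at 9.41, 8.62 and 7.44 in A172, T98G and U87MG (means of the 2 arrays of a line), and each pair of lines was called (F test adjusted p = 1.28e-05). E2F8 stood at 7.61, 6.88 and 8.56, highest in U87MG and lowest in T98G, and each pair was again called (adjusted p = 7.04e-05). A172 minus U87MG was 1.97 for E2F7 and -0.95 for E2F8. E2F2 had 5.13, 5.11 and 6.28, higher in U87MG than in the other lines, while A172 and T98G did not differ beyond their spread (adjusted p = 0.908). E2F1 had 7.31, 7.18 and 7.65, with the same line highest, and its A172 and T98G levels were not separated (adjusted p = 0.274).

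Subunits of the MCM ring were lower in A172 or T98G than in U87MG. MCM5 had 9.23, 9.66 and 10.09 in A172, T98G and U87MG, with each step called (adjusted p = 0.00604 and 0.00656). MCM3 had 9.25, 9.39 and 10.03, where A172 and T98G were not separated (adjusted p = 0.228), and MCM6 had 8.72, 8.39 and 9.24, where T98G was lowest. A172 was the lowest line for MCM4 and MCM7, at 8.66, 9.38 and 9.47 and 9.26, 9.67 and 9.67, with T98G and U87MG not separated (adjusted p = 0.54 and 0.978). MCM2 had 8.49, 8.09 and 8.49, with A172 and U87MG not separated (adjusted p = 0.997).

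Several helicase activators and licensing factors, and the clamp, were highest in T98G. CDC45 had 7.24, 8.47 and 8.05 in A172, T98G and U87MG, and each pair was called. ORC1 had 7.02, 8.10 and 7.77, where A172 was lower than both and the T98G to U87MG step just missed (adjusted p = 0.0506). CDC6 had 9.35, 9.71 and 9.43, higher in T98G than in the other lines. GINS1 had 8.25, 8.88 and 7.89 and PCNA 10.08, 10.50 and 9.60, both highest in T98G and lowest in U87MG with each pair called. GINS2 had 8.89, 8.84 and 8.25, lower in U87MG than in the other lines, and GINS3 missed the F test (adjusted p = 0.0602), with A172 called higher than T98G as a single pair (adjusted p = 0.0344).

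Polymerase and loader subunits were split. POLE2 was lowest in A172 and highest in U87MG, at 5.94, 6.55 and 7.61 in A172, T98G and U87MG, with each pair called (F test adjusted p = 2.97e-05). POLA1 had 7.75, 8.11 and 8.04, lower in A172, whereas POLA2 was not called (F test adjusted p = 0.168). RFC5 had 8.43, 8.75 and 9.22, with each pair called, and RFC3 8.50, 9.06 and 9.16, lower in A172 than in T98G and U87MG, which were not separated (adjusted p = 0.411). RFC2 and RFC4 were not called (F test adjusted p = 0.113 and 0.194).

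The cyclin E genes ran in opposite directions between A172 and the other lines. CCNE1 had 7.98, 7.31 and 7.41 in A172, T98G and U87MG, higher in A172, and CCNE2 had 8.22, 8.56 and 8.84, lower in A172 with each pair called. For CCNE1, T98G and U87MG were not separated (limma adjusted p = 0.44). CDK2 was highest in A172 and lowest in T98G, at 9.54, 8.75 and 9.29, and CDC25A was lowest in A172 and highest in U87MG, at 7.11, 7.66 and 8.04. RRM2, RRM1, SLBP, UHRF1 and MCM10 were lowest in T98G, with A172 minus T98G called for each except MCM10 (0.0707). TYMS and CDT1 had the narrowest ranges over lines, 0.093 and 0.18, and were not called (F test adjusted p = 0.596 and 0.427).

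Across the 35 members, the changes in A172 and T98G correlated with r = 0.604, in A172 and U87MG with 0.685 and in T98G and U87MG with 0.546. Over all 13812 genes the values were 0.278, 0.292 and 0.272. Without RFC3 and GINS3 the member values were 0.386, 0.296 and 0.224 over 33 genes. The points are genes measured on the same arrays and are not independent, so these are descriptions. Without those 2 genes the member value remained above that of all genes for A172 and T98G, was near it for A172 and U87MG, and lay below it for T98G and U87MG.

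As a check of the label, glioblastoma and astroglial markers were uneven. VIM and CD44 were high on all 6 arrays (lowest levels 11.88 and 11.48), while S100B, AQP4 and FABP7 lay below the filter and GFAP had 5.07 to 5.39. SOX2 and OLIG2 had means of 4.35 and 4.49, near the filter level of 4.28, and that of ALDH1L1 was only slightly higher. SLC1A3 ran from 3.85 in the A172 control array to 8.02 in the U87MG control array. NES ran from 5.16 in the T98G control array to 7.29 in the A172 control array. SOX9 had 6.54 in the U87MG control array to 7.36 in the T98G mimic array. Of 12 neuronal, leukocyte, endothelial and epithelial markers that passed the filter, 0 passed the mimic test, and PTPRC, CD3E, LYZ, PECAM1, VWF, KDR, STMN2 and CDH1 had means below the filter level. Some of these markers were bright in at least 1 line with and without the mimic. KRT8 and KRT18, epithelial keratins, had 10.49 and 10.74 in the A172 mimic array, against 10.41 and 10.86 in the A172 control array, and NEFL, a neurofilament gene, had 11.03 against 10.76 in the same mimic and control arrays. CD68, a macrophage marker, had 10.30 in the U87MG mimic array, against 10.40 in its control, and SNAP25, a neuronal gene, had 7.92 in the U87MG mimic array, against 8.11 in its control. KRT18 and CD68 were well above the filter level in the other lines too. KRT18 had 8.48 to 9.50 in T98G and U87MG, and CD68 had 8.29 to 8.42 in A172 and T98G. KDR, though its mean lay below the filter level, had 5.89 in the U87MG mimic array and 5.71 in its control. In A172 and T98G it had 3.16 to 3.65.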

How the data were processed

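The deposited table gives log2 values of 33297 probe sets on 6 arrays, which the authors made with RMA (background correction, quantile normalization between arrays, summarization) and the package oligo in R 3.0.1, per the submitters' processing notes. Quantile normalization largely removes a change shared by most genes. Scanner files were not used here, and the sources used here name no scan batch. Depth does not apply to arrays; 3 arrays per group limit the precision.

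Genes were named from the platform annotation (1 symbol for 19460 probe sets, several for 1754, none listed for 12083); 19429 identifiers matched the RefSeq gene table (GRCh38.p14, names only) and the other 31 were left as annotated. The brightest probe set stood for each of 18417 genes, and the lowest 25% by mean were left out. limma 3.58.1 in R 4.3.3 (lmFit, eBayes, two-sided, Benjamini-Hochberg over 13812 genes) tested mimic minus control with the line as a block, and lines with transfection as an additive term. Residual degrees of freedom were 2, and 6.56 with the prior. The lines pair the arrays per the labels, and deviations from group means correlated within lines with r from 0.928 to 0.938. The fit was tested on simulated data with the same noise level for all genes and planted changes larger than any member's mean change. It therefore does not show how often changes of the sizes reported here would be found.

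The members and lists were chosen with earlier results of these data known. Array values are given for members past the threshold, the 12 of smallest p, the RFC and GINS subunits and the 10 of smallest adjusted p between lines, and some others chosen after their values were seen. Of those 10, E2F7 and MCM5 are given by their mean change and line means only. Related lists are given by counts with their 3 genes of smallest p (clamp loader partners, regulators and fork genes with some others, chosen likewise). Promoter motifs were chosen after member promoters had been searched.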

Additional observations from a re-analysis of the deposited data

How the results depend on the processing

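The number of genes past the threshold for mimic minus control, 153 in all, was 60 with no filter, 360 with the dimmer 50% left out, 236 with arrays centred on their medians, 471 with a variance prior fitted along expression, and 0 with no replicate block (127 genes at an unadjusted p under 0.05 in limma); it lay between 0 and 117 when 1 line was left out (0 without U87MG, with 1339 at an unadjusted p). The count of members lower was 1, and 0 with no filter, 0 with no replicate block and 0 without any 1 of the lines. The count of members higher was 0, and 1 with the dimmer 50% left out (GINS3), 2 with the prior that follows expression (GINS3, and RFC4 at adjusted p = 0.042), and between 0 and 1 when a line was left out. With no replicate block the adjusted p of RFC3 was 1 after rounding. The median change of the members lay between 0.077 and 0.115 without 1 line. The sign turned for RFC2 (-0.00029 with centred arrays, and from -0.0023 to 0.044 without 1 line), GINS1 (-0.15 to 0.0086 without 1 line) and GINS2 (-0.066 to 0.12 without 1 line), none of them called. Of 175 values of 16 named members under the alternatives, 162 kept both sign and side of the threshold. Only RFC3 was called in the main fit, so for the other members staying uncalled counts as kept. Of the remaining values, 5 lost the call, all of them for RFC3, 4 gained one and 4 turned in sign. RFC3 against RFC2, RFC4 and RFC5 and the counts of members between lines moved little in the alternatives run. A fit without 1 line has 1 residual degree of freedom, which alone can cost a call. The cause of the other moves was not tested.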
